A study of Mus musculus with 54 samples.

Results

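The mouse strains C57BLKS/J and C57L/J were compared in hippocampus, striatum and brainstem, with 3 arrays of each strain in each tissue. The comparison used 18 of the 54 arrays of the series, 9 of C57BLKS/J and 9 of C57L/J, chosen by strain label alone. Each array held RNA pooled from 3 adult male mice killed on postnatal day 60. In every strain and tissue, 1 pool came from mice tested on postnatal day 50 for prepulse inhibition, the damping of an acoustic startle by a weaker sound given just before it, and 2 pools came from untested mice. The series holds the same tissues of 4 other inbred strains, C57BL6/J, C57BL10/J, BalbC/J and C3H HeJ, and was made to set expression beside prepulse inhibition. No allele or agent was introduced into either strain, so each group is an inbred background as such. Of the 12 mice kept per strain 6 were tested, so the 2 untested pools of each tissue drew on the same 6 mice and the 9 arrays of a strain are not 9 independent samples. Nothing in the labels places the pools in separate batches. Within a tissue, p-values measure the spread between pools of one strain. In the fit of the 3 tissues together, the spread also holds any change of the strain difference between tissues.

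Inbred strains are homozygous at nearly every locus, and lasting differences in transcript level between them are usually traced to inherited variants, many of them near the gene itself. C57BLKS/J is a C57BL-related strain that carries segments from DBA/2J, including the H2d haplotype of the major histocompatibility complex, and is best known as the background on which the leptin receptor mutation db gives severe diabetes. C57L/J, the leaden strain, is non-agouti, brown and dilute through the coat colour genes a, Tyrp1 and Mlph, carries the H2b haplotype, and is known for gallstones on a cholesterol-rich diet.

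On the deposited log2 scale the 18 arrays had medians of 4.18 to 4.60, and a gene was tested where its brightest probe set lay above the array's 40th percentile, 3.12 to 3.34, on at least 3 arrays of the tissue. The tissue labels held: all 15 hippocampal, all 12 striatal and all 14 brainstem neuron markers with a probe set were highest in the tissue they mark. Of the 18 arrays, 17 correlated best with arrays of their own strain and tissue, and the tested C57L/J striatum pool correlated best with an array of C57BL6/J. The striatal count is therefore also given without that pool, and without the second untested C57L/J pool, whose striatal markers were lowest.

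Differences are given throughout as C57BLKS/J minus C57L/J in log2 units, so that 1 unit is a 2-fold change, each with its standard error from limma, and a gene is called where limma's Benjamini-Hochberg adjusted p is under 0.05. In hippocampus 1181 of 12317 genes tested were called (9.59%), 494 higher in C57BLKS/J (4.01%) and 687 higher in C57L/J (5.58%). In striatum 531 of 12320 were called (4.31%), 329 higher in C57BLKS/J (2.67%) and 202 lower (1.64%). In brainstem 511 of 12484 were called (4.09%), 246 higher in C57BLKS/J (1.97%) and 265 lower (2.12%). With the 3 tissues together and tissue as a block, 1300 of 13199 genes were called (9.85%), 574 higher in C57BLKS/J (4.35%) and 726 lower (5.5%). Most differences were small: over 2-fold were 160 hippocampal calls (1.3% of genes tested), 174 striatal (1.41%), 139 brainstem (1.11%) and 134 over the tissues together (1.02%). The median difference over all genes tested was -0.016 in hippocampus, 0.029 in striatum and -0.0011 in brainstem. Without the tested C57L/J striatum pool the striatal count rose from 531 to 1254. It was 363 without the second untested C57L/J pool and 330 without the first untested C57BLKS/J pool. The hippocampal count was 757 without the second untested C57BLKS/J pool. The brainstem count was 1022 without the second untested C3H HeJ pool, which enters the comparison only through the shared estimate of spread. Counts of list members given below without the tested C57L/J striatum pool therefore stand beside 1254 of 12320 genes. Those without this C3H HeJ pool stand beside 1022 of 12484.

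The same strain difference recurred across tissues for a core of genes. Of 11606 genes tested in all 3 tissues, 214 were called in the same direction in each (1.84%), 123 higher in C57BLKS/J and 91 higher in C57L/J. By their mean difference, 113 of the 214 lay under 2-fold, 60 between 2- and 4-fold, 28 between 4- and 16-fold and 13 above 16-fold. The count ranged from 175 to 216 when each of the 18 arrays was left out in turn. Another 249 genes were called in 2 tissues and 1083 in 1 tissue, of which 753 were called in hippocampus alone. A call in 1 tissue does not by itself show a difference between tissues, which was tested separately.

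The gene with the widest separation was Stk25, a STE20-family serine/threonine kinase, which was high in C57BLKS/J and low in C57L/J. In hippocampus the tested pool and the 2 untested pools read 11.08, 11.06 and 10.96 in C57BLKS/J and 3.45, 4.74 and 3.70 in C57L/J, in striatum 9.47, 9.38 and 9.77 against 2.56, 1.95 and 3.09, and in brainstem 10.29, 10.23 and 10.12 against 3.00, 3.48 and 2.41. The difference was 7.07 ± 0.21 in hippocampus and 7.25 ± 0.19 in brainstem (limma adjusted p = 2.16e-12 and 6.27e-12). In hippocampus, where all 3 C57L/J arrays lay above the 40th percentile, this was 134-fold in the deposited values. In striatum none of the C57L/J arrays did and in brainstem 1, so the sizes there rest on levels under the filter. No C57L/J array came within the range of any C57BLKS/J array of its tissue, and the other 4 strains were also high, at 9.33 (BalbC/J) to 11.21 (C57BL10/J) in hippocampus.

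Galc encodes galactosylceramidase, the lysosomal enzyme that breaks down myelin galactolipids and is lost in the twitcher mouse. Its brightest probe set read 8.88, 9.12 and 8.92 in C57BLKS/J hippocampus and 3.65, 3.62 and 3.66 in C57L/J, a difference of 5.33 ± 0.094 (limma adjusted p = 5.26e-15). In brainstem the levels were 9.27, 9.41 and 9.42 against 2.98, 2.93 and 2.82 (difference 6.46 ± 0.10). The arrays of the 2 strains did not overlap in any tissue and C57L/J alone of the 6 strains was low. A second, dimmer Galc probe set went the other way, by -1.65 in hippocampus (adjusted p = 5.64e-05 over all probe sets) and -0.58 in brainstem (0.062), so no single Galc difference holds for both probe sets.

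Serpinb1a, an inhibitor of neutrophil serine proteases, showed differences of 4.29 ± 0.25 (hippocampus), 5.67 ± 0.29 (striatum) and 4.55 ± 0.21 (brainstem), higher in C57BLKS/J. Its brainstem levels were 10.02, 10.32 and 10.31 in C57BLKS/J and 5.47, 5.79 and 5.76 in C57L/J, so it was still well above the 40th percentile there in C57L/J, whereas in hippocampus C57L/J read only 2.25, 2.63 and 2.25. Ccar2, an inhibitor of the deacetylase SIRT1, differed by 5.28 ± 0.13, 3.74 ± 0.19 and 4.28 ± 0.39. Erdr1, which lies in the pseudoautosomal region, differed by 3.96 ± 0.37, 5.88 ± 0.44 and 5.50 ± 0.22, with C57L/J arrays scattered from 1.61 to 5.04. In all of these C57L/J was the low strain of the 6 in each tissue. Gm13306, a predicted gene, was higher in C57BLKS/J by 5.88 ± 0.15 in hippocampus and 5.29 ± 0.28 in striatum. Its brainstem difference of 2.03 ± 0.49 (adjusted p = 0.0312) lost its call without each pool in turn except the tested C57BLKS/J pool, with adjusted p up to 0.147.

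Other genes high in C57BLKS/J split the 6 strains differently. Rps9, a protein of the small ribosomal subunit, read 14.63, 15.01 and 14.86 in C57BLKS/J hippocampus and 9.61, 9.58 and 9.35 in C57L/J, with C57BL6/J and C57BL10/J near C57BLKS/J (14.68 and 14.65) and C3H HeJ and BalbC/J near C57L/J (9.45 and 9.46). The difference was 5.32 ± 0.13, 5.27 ± 0.25 and 5.14 ± 0.14 in the 3 tissues. The second Rps9 probe set differed by only -0.28, -0.14 and -0.20 and passed the test in none (adjusted p = 0.0509, 0.552 and 0.0908). Cap1, a cyclase-associated protein that recycles actin, was lower in C57L/J by 4.01 ± 0.18, 6.38 ± 0.37 and 3.38 ± 0.067, and C57BL6/J shared the low level (8.34 in hippocampus against 12.26 in C57BL10/J). Both Cap1 probe sets gave this result, the second by 4.25, 7.38 and 3.51. Pttg1, the separase inhibitor securin, was high in C57BLKS/J and C57BL6/J (11.45 and 11.55 in hippocampus) and low in C57L/J and the other 3 strains (5.99 to 6.34).

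A probe set that the array's annotation pairs with Mir1931, on chromosome 10, was among the widest differences and depended on tissue. Its hippocampal levels were 8.35, 7.88 and 8.10 in C57BLKS/J and 2.31, 2.48 and 2.66 in C57L/J, and its striatal levels 9.40, 10.02 and 9.76 and 3.01, 2.96 and 2.77. In brainstem C57BLKS/J read only 3.47, 4.12 and 3.54 against 2.52, 2.52 and 2.52. The difference was 5.63 ± 0.16, 6.81 ± 0.21 and 1.19 ± 0.20, and limma's strain by tissue interaction gave an adjusted p of 3.07e-08. An expression array reads the longer transcript around a miRNA and not the mature form, whose level was not measured. The mature sequence is shown to identify the annotated locus, from RefSeq (GRCm38.p6), 5′ to 3′ with the seed, bases 2 to 8, in capitals.
mmu-miR-1931: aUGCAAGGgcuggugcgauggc

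Cfap54, a cilia and flagella protein gene with 5 listed genes between it and Mir1931 in RefSeq's order, showed the same strain and tissue pattern with the opposite sign. In C57BLKS/J against C57L/J it fell by 3.90 ± 0.27 in hippocampus and 4.16 ± 0.30 in striatum, and in brainstem by 1.12 ± 0.24 (interaction adjusted p = 0.00466). For both, C57BL6/J and C57BL10/J resembled C57BLKS/J while C3H HeJ and BalbC/J resembled C57L/J. The brainstem call of Cfap54 was lost without the tested C57BLKS/J pool, the tested C57L/J pool or the second untested C57L/J pool (adjusted p up to 0.0728).

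Among genes higher in C57L/J was Gdpd3, of the glycerophosphodiester phosphodiesterase family. In hippocampus it read 1.62, 1.61 and 1.61 in C57BLKS/J and 8.10, 7.58 and 7.56 in C57L/J, in striatum 1.67, 1.72 and 1.64 against 6.06, 6.65 and 6.77, and in brainstem 1.62, 1.67 and 1.64 against 8.05, 8.68 and 8.10. The difference in the deposited values was -6.13 ± 0.095, -4.82 ± 0.11 and -6.63 ± 0.11. All 9 C57BLKS/J arrays lay under the 40th percentile, as did the group means of the other 4 strains (1.60 to 1.64 in hippocampus), so C57L/J was the only strain with a level above it. Gdpd3 thus passed the filter only through the strain where it is high, and the size of its difference is against a level under the filter. The latter also holds, with no array of the low strain above the 40th percentile, for Galc in striatum and brainstem, Serpinb1a and Ccar2 in hippocampus and striatum, Erdr1 in brainstem, Gm13306 in hippocampus, Mir1931 in every tissue, Fggy in hippocampus and brainstem, Gm33738 in brainstem, and Bhlhe41 in every tissue. Ifit2, an interferon-induced protein with tetratricopeptide repeats, was likewise highest in C57L/J, at 9.42, 9.33 and 9.43 in hippocampus against 6.23, 5.86 and 5.84 in C57BLKS/J and group means of 5.82 to 6.24 in the other strains. It differed by -3.42 ± 0.22, -2.28 ± 0.31 and -2.23 ± 0.33.

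For most other leading genes of this direction it was C57BLKS/J that was low. 2010315B03Rik read 7.10, 7.22 and 7.02 in C57BLKS/J striatum, and 9.69, 9.74 and 9.49 in C57L/J, where the other 4 strains had means of 9.44 to 9.76. 1500004A13Rik differed by -3.96 ± 0.16, -4.55 ± 0.32 and -4.67 ± 0.32, with BalbC/J also low, and Nat8f4, of the N-acetyltransferase 8 family, by -4.41 ± 0.12, -3.63 ± 0.18 and -3.39 ± 0.17. Tmem267, a transmembrane protein gene, was low in C57BLKS/J (5.41, 4.40 and 5.46 in hippocampus, against 9.86, 9.85 and 9.67 in C57L/J) and in C3H HeJ (6.40). C57BLKS/J shared a low level with both C3H HeJ and BalbC/J for Ppp1r3e, a glycogen-targeting subunit of protein phosphatase 1 (-3.30 ± 0.31 in hippocampus), for Ccdc25 (-2.66 ± 0.18) and for Smco3 (-2.82 ± 0.53). In striatum the Smco3 call (difference -2.87 ± 0.60) was lost without the second untested C57BLKS/J pool or the second untested C57L/J pool (adjusted p up to 0.067).

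**Figure D1:**
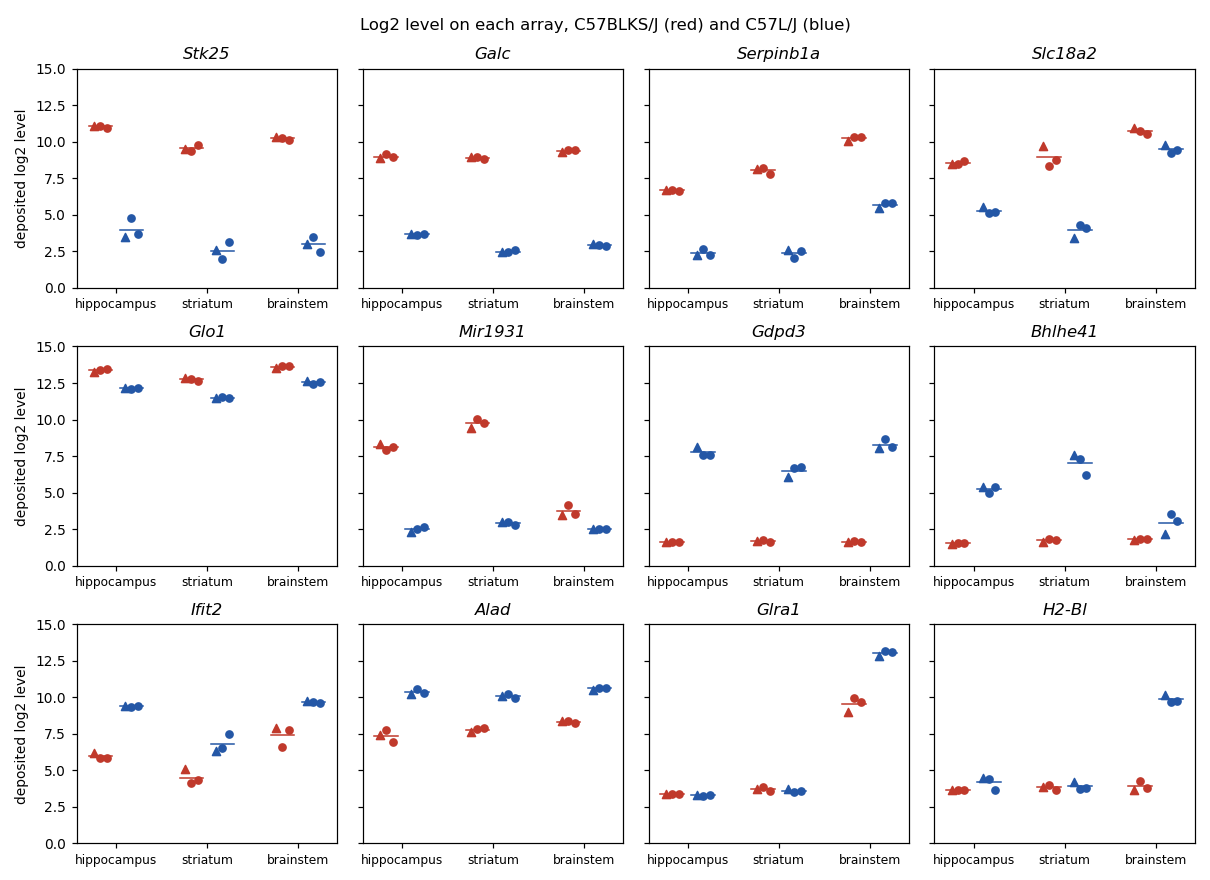
Deposited log2 level of 12 genes on each of the 18 arrays, by tissue; red marks C57BLKS/J, blue C57L/J, triangles the tested pool, circles the 2 untested pools and short lines the mean of 3. Stk25, Galc, Serpinb1a, Slc18a2, Glo1 and Mir1931 were higher in C57BLKS/J in all 3 tissues and Gdpd3, Ifit2 and Alad higher in C57L/J, while Glra1 and H2-Bl separated the strains in brainstem.

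C57BL6/J and C57BL10/J were used to describe which of the pair lay further from the C57BL level. Of these 214 shared genes, C57L/J stood apart from C57BL6/J and C57BL10/J for 122, 81 lower and 41 higher in C57L/J than in C57BLKS/J. C57BLKS/J stood apart for 78, 34 of them higher in C57BLKS/J and 44 lower. For the remaining 14 C57BL6/J and C57BL10/J disagreed, and 8 of these 14 lie on chromosome 11. C57BL6/J and C57BL10/J were said to disagree when their means differed by more than the distance from C57BLKS/J to the midpoint between it and C57L/J. Otherwise a strain was said to stand apart when the average of C57BL6/J and C57BL10/J was nearer to the other strain. Some genes so counted, such as Ctss, had C57BL6/J and C57BL10/J on different sides of that midpoint. The rule names 1 strain even where both departed. Etnppl, counted for C57BLKS/J, had means of 5.68 in C57BLKS/J and 7.47 in C57L/J against 9.90 in C57BL6/J and 10.05 in C57BL10/J. Arhgef15, also counted for C57BLKS/J, read 8.18 and 6.75, on either side of 7.20 and 7.33. Because each gene was selected for differing between C57BLKS/J and C57L/J, these counts are a description and were not tested.

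**Figure D2:**
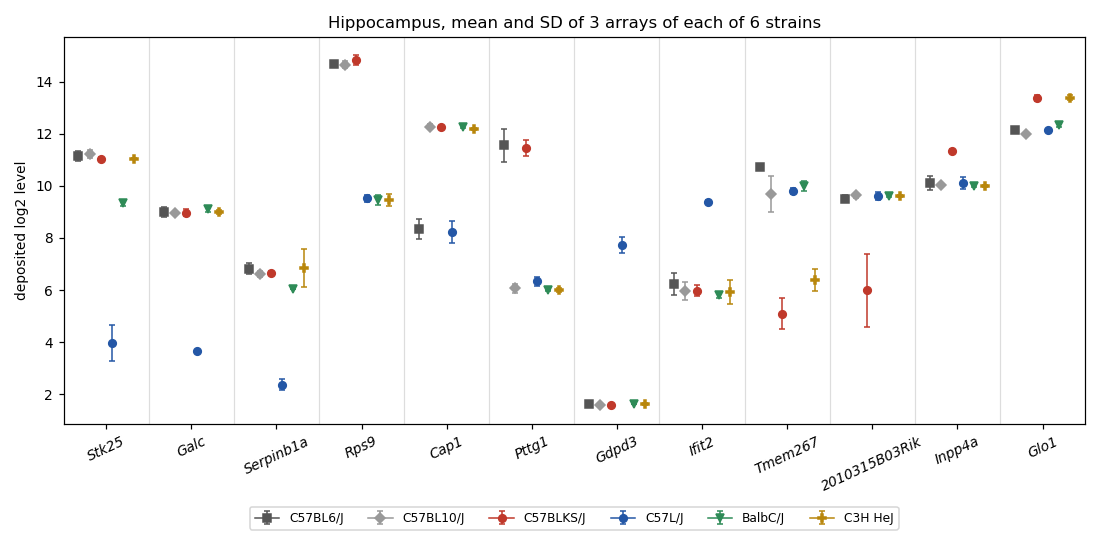
Hippocampal log2 level of 12 genes in the 6 strains; points are means and bars the SD of 3 arrays, with C57BLKS/J in red and C57L/J in blue. C57L/J alone was low for Stk25, Galc and Serpinb1a and alone high for Gdpd3 and Ifit2, whereas C57BLKS/J alone was low for 2010315B03Rik and alone high for Inpp4a.

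Many genes are read by several probe sets, and their agreement sets how far a difference can be taken as one of the whole transcript. Of 9010 genes with 2 or more probe sets, 21 had every one of them called the same way in all 3 tissues, 16 higher in C57BLKS/J and 5 higher in C57L/J. Besides Cap1, they included Nudt19, a nudix hydrolase that acts on coenzyme A (2.28 ± 0.069, 2.50 ± 0.076 and 2.68 ± 0.067, with C57L/J low among the 6 strains), and Pisd-ps3, a pseudogene of phosphatidylserine decarboxylase that the array may not separate from related copies (2.26 ± 0.083 in hippocampus and 2.11 ± 0.12 in brainstem). Tlr3, the endosomal receptor for double-stranded RNA, read 7.96, 7.86 and 7.82 in C57BLKS/J hippocampus and 6.21, 6.46 and 6.47 in C57L/J, and its second probe set differed by 3.75, 3.99 and 2.46. Inpp4a, an inositol polyphosphate 4-phosphatase, was higher in C57BLKS/J than in the other 5 strains: 11.28, 11.44 and 11.29 in hippocampus against 9.96, 10.37 and 9.97 in C57L/J and group means of at most 10.10 elsewhere.

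The 5 genes higher in C57L/J by every probe set were Alad, Pigbos1, Zfp14, Scoc and Fam126b. Alad, which makes porphobilinogen in heme synthesis, read 7.40, 7.74 and 6.93 in C57BLKS/J hippocampus and 10.21, 10.61 and 10.28 in C57L/J (difference -3.01 ± 0.18), with C57BL6/J also low at 7.82. Pigbos1, a mitochondrial microprotein gene, differed by -1.72 ± 0.20, -1.46 ± 0.19 and -1.51 ± 0.098, and Zfp14, a zinc finger gene, by -1.39 ± 0.17, -1.55 ± 0.19 and -1.15 ± 0.13. Scoc, a short coiled-coil protein of the Golgi, was an example of a small and tight difference: 12.53, 12.60 and 12.62 against 13.52, 13.50 and 13.54 in hippocampus. Fam126b differed in size between its 4 probe sets. The brightest gave -0.24 ± 0.043, -0.38 ± 0.060 and -0.27 ± 0.056, the second -2.88, -3.71 and -2.99, and the others -0.74 to -1.62. The brainstem call of the brightest was lost without the second untested C57BLKS/J pool or the tested C57L/J pool (adjusted p up to 0.0754). Glo1, the glyoxalase that detoxifies methylglyoxal and is known to vary among inbred mice, was higher in C57BLKS/J by 1.24 ± 0.060, 1.27 ± 0.073 and 1.07 ± 0.070, and its 4 probe sets differed by 0.87 to 1.30 in hippocampus.

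Agreement of this kind was the exception. Of the 1181 genes called in hippocampus, 393 had a single probe set and 128 had no other probe set that could be tested. Among the rest, 261 had another probe set called in the same direction, 52 had one called in the opposite direction, and 347 had no other probe set called (12.4% of all probe sets tested in hippocampus were called). Grin2b, a subunit of the NMDA glutamate receptor, is one of the 52: its brightest probe set was higher in C57BLKS/J by 0.46 ± 0.088 in hippocampus, while its second and the third were lower, at -1.06 and -1.79. Slc1a3, the astrocyte glutamate transporter, differed by 1.74 in its brightest hippocampal probe set and by 0.18 in the second. Whether sequence differences under the probes play a part in such results was not tested.

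**Figure D3:**
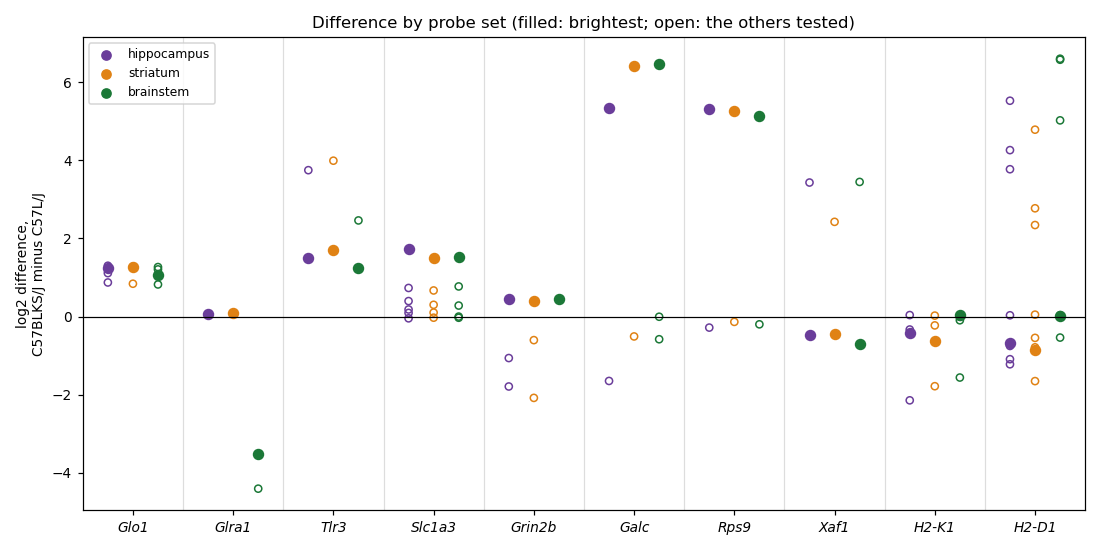
Log2 difference, C57BLKS/J minus C57L/J, for every tested probe set of 10 genes in 3 tissues; filled points are the brightest probe set of the gene and open points the others. All probe sets of Glo1 and Tlr3 lay on one side of 0, whereas those of Galc, Grin2b, Xaf1 and H2-D1 lay on both.

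The major histocompatibility complex on chromosome 17 is where the 2 strains carry different haplotypes, d in C57BLKS/J and b in C57L/J. H2-D1, a classical class I gene, was read by 9 probe sets, which disagreed. The brightest gave -0.67 ± 0.15 (hippocampus), -0.86 ± 0.45 (striatum) and 0.0031 ± 0.20 (brainstem; adjusted p = 0.0113, 0.368 and 0.999), and the hippocampal call was lost without the tested C57BLKS/J pool (adjusted p = 0.0533). Its probe sets ranked 4, 5 and 7 by brightness were higher in C57BLKS/J, by 5.52, 3.77 and 4.26 in hippocampus and by 6.57, 5.02 and 6.60 in brainstem. No single level of H2-D1 can therefore be stated for either strain. The 4 probe sets of H2-K1 differed in size: the brightest was not called in any tissue (-0.42 ± 0.23 in hippocampus, adjusted p = 0.289), the second differed by -2.14, -1.78 and -1.56, and neither of the others was called.

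H2-Ea, a class II gene known to be silent in b haplotype mice, differed by 0.065 ± 0.081, -0.089 ± 0.15 and 0.0097 ± 0.10 and was not called (adjusted p = 0.70, 0.817 and 0.999). Of the 11 tested genes of the list for this complex and antigen presentation, 2 were called in hippocampus, 1 higher and 1 lower in C57BLKS/J, 2 in striatum, both higher, and 1 of 13 in brainstem, higher (2 without the second untested C3H HeJ pool), beside 9.59%, 4.31% and 4.09% of all genes. The list's median difference was 0.048 in hippocampus, beside -0.016 over all genes. The 1 member called in every tissue, H2-Ke6, lies in the complex but encodes a 17-beta-hydroxysteroid dehydrogenase. It differed by 0.53 ± 0.13, 0.87 ± 0.15 and 0.76 ± 0.13, and its hippocampal call was lost without the second untested C57BLKS/J pool or the second untested C57L/J pool (adjusted p up to 0.102). B2m, the light chain shared by class I molecules, was lower in C57BLKS/J over the 3 tissues together, at -0.24 ± 0.051 (adjusted p = 0.0059), and was called in no single tissue.

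The strain by tissue interaction, which tests the difference between tissues itself, called 130 of 13199 genes (0.985%). The count was 663 without the tested C57L/J striatum pool, and 85 among the 11606 genes passing the filter in all 3 tissues. Genes had to pass in only 1 tissue, so a call can arise because a gene is dim in the others. One of the 130 was Glra1, the alpha 1 subunit of the glycine receptor, the inhibitory channel of brainstem and spinal cord whose mutation causes startle disease. It read 9.03, 9.95 and 9.68 in C57BLKS/J brainstem and 12.86, 13.20 and 13.14 in C57L/J, a difference of -3.51 ± 0.28 (limma adjusted p = 1.82e-06). The groups did not overlap and the second Glra1 probe set differed by -4.40 (adjusted p = 0.000211). In hippocampus and striatum all 12 arrays of the 2 strains lay between 3.26 and 3.86, close to the 40th percentile, and the interaction had an adjusted p of 4.07e-07. Among the other strains the brainstem mean was 10.03 in C57BL10/J, 11.36 in C3H HeJ, and higher in BalbC/J (12.87) and C57BL6/J (13.08), so C57BLKS/J and C57BL10/J were the low pair. Of the 13 brainstem neuron markers tested, Glra1 was the only one called in brainstem (5 of 13, 4 of them higher in C57BLKS/J, without the second untested C3H HeJ pool), and their median difference was 0.11.

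H2-Bl, a class I gene of the histocompatibility complex, was also a brainstem difference. C57BLKS/J read 3.68, 4.26 and 3.82 and C57L/J 10.18, 9.66 and 9.78, a difference of -5.96 ± 0.24 (adjusted p = 1.14e-09). Only C3H HeJ among the other strains was also high there (8.29 against 4.12 to 4.66). In hippocampus and striatum the 12 arrays lay between 3.67 and 4.50 and the groups overlapped. Another 3 genes separated the strains in brainstem and were dim in the other tissues: B230311B06Rik (-2.98 ± 0.16), Fggy, a carbohydrate kinase (-2.65 ± 0.26), and Gm33738 (1.09 ± 0.11).

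Another 2 genes differed most in hippocampus. Wbp11, a pre-mRNA splicing factor, was higher in C57BLKS/J by 1.09 ± 0.058 in hippocampus and 0.46 ± 0.060 in striatum and differed by -0.12 ± 0.058 in brainstem (adjusted p = 0.476), with an interaction adjusted p of 4.62e-05. Its second probe set differed by -0.26 in hippocampus (adjusted p = 0.183). Lefty1, a TGF-beta family protein of left-right patterning, read 8.49, 8.49 and 8.61 in C57BLKS/J hippocampus and 7.44, 7.42 and 7.08 in C57L/J (1.21 ± 0.097), where the other 4 strains had means of 8.44 to 8.55. In the other tissues it was not tested and lay at 2.44 to 2.58 on all 12 arrays.

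Another 6 genes were called in opposite directions in 2 tissues, and all are named because they make up that count, after their values were seen. The widest was Nts, the neuropeptide neurotensin, which was lower in C57BLKS/J hippocampus (-0.49, adjusted p = 0.00269) and higher in C57BLKS/J striatum (2.93, 0.00622). Cbfa2t3 and Mylk were higher in C57BLKS/J in hippocampus (0.59 and 0.48) and lower in striatum (-0.36 and -0.69). Nbl1 and Pxdn were higher in hippocampus (0.76 and 0.83) and lower in brainstem (-1.25 and -0.63), and Spata5l1 was higher in striatum (0.67) and lower in brainstem (-0.56). The striatal call of Cbfa2t3 was lost without each pool in turn except the second untested C57BLKS/J pool and the tested C57L/J pool (adjusted p up to 0.118). The brainstem call of Pxdn was lost without each pool in turn except the first untested C57BLKS/J pool (up to 0.192), and that of Spata5l1 without the second untested C57BLKS/J pool, the tested C57L/J pool or the second untested C57L/J pool (up to 0.0657). The interaction itself was called for Cbfa2t3, Mylk and Spata5l1. Mylk and Cbfa2t3 also have a dimmer probe set of the other sign in hippocampus (-0.62 for the second of Mylk and -0.15 for the third of Cbfa2t3).

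Of the monoamine, glutamate and GABA-A lists, 1 gene was called in every tissue. Slc18a2, the vesicular monoamine transporter that loads dopamine, noradrenaline and serotonin into vesicles, was higher in C57BLKS/J in all 3 tissues. It read 8.47, 8.44 and 8.67 in C57BLKS/J hippocampus against 5.52, 5.08 and 5.20 in C57L/J, 9.72, 8.29 and 8.74 against 3.37, 4.29 and 4.11 in striatum, and 10.93, 10.72 and 10.55 against 9.77, 9.23 and 9.46 in brainstem, where the monoamine cell bodies lie. The difference was 3.26 ± 0.18, 5.00 ± 0.48 and 1.25 ± 0.22 (limma adjusted p = 7.00e-09, 1.07e-05 and 0.00282), and depended on tissue (interaction adjusted p = 0.000692). No C57L/J array reached a C57BLKS/J array, and the other 4 strains were near C57BLKS/J in hippocampus, at 8.15 to 8.78. A single probe set reads this gene. Of the other tested members of the monoamine list, Htr1b, a serotonin receptor, was the only one called, higher in C57BLKS/J in hippocampus and striatum, so 2 of 10 members were called in each of these tissues and 1 of 14 in brainstem. Without the second untested C3H HeJ brainstem pool 5 of 14 were called there, and without the tested C57L/J striatum pool 4 of 10 in striatum, all higher in C57BLKS/J. The list's median difference was 0.073, 0.34 and 0.20.

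Of the ionotropic glutamate receptor subunits, 1 of 13 tested in hippocampus (Grin2b), 1 of 12 in striatum (Grin2b) and 1 of 12 in brainstem (Grik1, lower in C57BLKS/J, and 2 without the second untested C3H HeJ pool) were called. The striatal Grin2b call was lost without the first untested C57BLKS/J pool, the second untested C57BLKS/J pool or the first untested C57L/J pool (adjusted p up to 0.0584), and 4 of 12 members were called without the tested C57L/J striatum pool. Of 8 GABA-A receptor subunits 0 were called by limma in hippocampus and striatum (2 and 1 at an unadjusted p under 0.05) and 1, Gabra2, was lower in C57BLKS/J brainstem. Gabra5 was called in striatum without the tested C57L/J pool. The list of prepulse inhibition and schizophrenia candidates had 2 of 13 called in hippocampus (Rgs4 and Gsk3b, 1 in each direction), 1 of 13 in striatum (Dtnbp1, higher in C57BLKS/J) and 0 of 13 in brainstem (0 at an unadjusted p under 0.05). Without the tested C57L/J striatum pool 4 of 13 were called in striatum. With every pool kept, the counts of these neurotransmission and candidate lists stand beside 9.59%, 4.31% and 4.09% of all genes in the same tissues. Those without the tested C57L/J striatum pool stand beside 1254 of 12320 genes. Those without the second untested C3H HeJ brainstem pool stand beside 1022 of 12484. No list was tested as a set.

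Pdxdc1, a pyridoxal phosphate-dependent decarboxylase domain protein, was examined because the title of the series names it as a modulator of prepulse inhibition. It read 8.38, 8.79 and 8.61 in C57BLKS/J hippocampus and 9.01, 8.85 and 8.88 in C57L/J. The difference was -0.32 ± 0.15, 0.12 ± 0.21 and 0.20 ± 0.15 in hippocampus, striatum and brainstem and passed the test in none (adjusted p = 0.227, 0.815 and 0.766), and its 3 other probe sets differed by -0.29 to 0.14. Both strains lay with C57BL6/J (8.73) and above C3H HeJ and BalbC/J (6.63 and 7.44) in striatum. Of the list of Pdxdc1 and other pyridoxal phosphate enzymes the hippocampus had 2 of 20 tested genes called, the striatum 1 of 21 and the brainstem 3 of 21. These stand beside 9.59%, 4.31% and 4.09% of all genes. Without the tested C57L/J pool the striatum had 3, beside 1254 of 12320 genes. Etnppl, which cleaves phosphoethanolamine and marks astrocytes, was lower in C57BLKS/J brainstem (9.86, 9.67 and 9.97 against 11.18, 10.95 and 10.92, difference -1.18 ± 0.16). Its differences of -1.77 ± 0.52 in hippocampus and -2.42 ± 0.50 in striatum were called (adjusted p = 0.0452 and 0.011), but the first was lost without each pool in turn except the second untested C57L/J pool (adjusted p up to 0.219) and the second without the first untested C57BLKS/J pool, the second untested C57BLKS/J pool or the second untested C57L/J pool (up to 0.0626). Kyat3, a kynurenine aminotransferase, was higher in C57BLKS/J brainstem by 0.98 ± 0.15. Odc1, the first enzyme of polyamine synthesis, differed there by -0.34 ± 0.084, a call lost without each of the 6 arrays in turn (adjusted p up to 0.184).

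Of 22 leptin and insulin signalling genes, hippocampus had 3 called (13.6%, beside 9.59% of all genes), brainstem 1 (4.55%, beside 4.09%) and striatum 2 of the 20 tested there (beside 4.31%). Without the tested C57L/J pool the striatal count was 4, beside 1254 of 12320 genes. Without the second untested C3H HeJ pool the brainstem count was 3, beside 1022 of 12484. Jak2, the kinase bound to the leptin receptor, was higher in C57BLKS/J than in every other strain's mean in hippocampus, at 9.65, 9.69 and 9.56 against 9.28, 9.17 and 9.35 in C57L/J (0.37 ± 0.060, adjusted p = 0.000837) and group means of 9.24 to 9.35 elsewhere. In striatum it differed by 0.71 ± 0.14 (adjusted p = 0.00905, no longer called without the tested C57BLKS/J pool) and in brainstem by 0.064 ± 0.073. Igfbp5, an insulin-like growth factor binding protein, in C57BLKS/J against C57L/J brainstem fell by 0.45 ± 0.088. Its striatal difference of -0.68 ± 0.16 was no longer called without each pool in turn except the tested C57BLKS/J pool and the tested C57L/J pool (adjusted p up to 0.129). Igf1 differed by -0.68 ± 0.19 over the 3 tissues together (adjusted p = 0.0342), a call lost without any of 11 of the 18 arrays (up to 0.069).

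Of the bile acid and cholesterol genes 2 of 11 tested were called in hippocampus and 1 of 12 in each of the other tissues. These stand beside 9.59%, 4.31% and 4.09% of all genes. Without the tested C57L/J pool 3 were called in striatum, beside 1254 of 12320 genes. Without the second untested C3H HeJ pool 2 were called in brainstem, beside 1022 of 12484. Npc1, which exports cholesterol from lysosomes, was lower in C57BLKS/J in all 3 tissues, at 9.88, 9.71 and 9.74 against 10.39, 10.03 and 10.27 in hippocampus. The difference was -0.45 ± 0.080, -0.57 ± 0.10 and -0.58 ± 0.13, and C3H HeJ and BalbC/J were as low as C57BLKS/J (9.64 and 9.73 in hippocampus). The brainstem call was lost without the tested C57BLKS/J pool, the first untested C57L/J pool or the second untested C57L/J pool (adjusted p up to 0.113). The coat colour genes that set the appearance of the strains could not be compared: Mlph, Tyrp1 and a lay under the filter in every tissue, and of 9 coat colour and melanosome genes tested 1, Rab27a, was called in hippocampus, higher in C57BLKS/J, and 0 by limma in striatum and brainstem (1 and 1 at an unadjusted p under 0.05). Myo5a was called in brainstem without the second untested C3H HeJ pool.

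The members of the myelin and microglial lists called in hippocampus were all lower in C57BLKS/J. This holds for the listed genes alone. Olfml3 and Fcrls, which the microglial list does not hold, were called higher in C57BLKS/J in all 3 tissues (mean differences 2.15 and 0.85). In bulk tissue, fewer cells of a type and less RNA per cell cannot be told apart. Of 12 oligodendrocyte and myelin genes, 4 were called in hippocampus, all lower in C57BLKS/J (Mag, Aspa, Opalin and Gjb1), 1 in striatum and 0 in brainstem (1 at an unadjusted p under 0.05), with list medians of -0.31, -0.11 and 0.10, beside 9.59%, 4.31% and 4.09% of all genes called. Without the tested C57L/J pool 2 were called in striatum, beside 1254 of all 12320 genes. The mean level of the 12 was 11.71, 11.39 and 11.66 on the C57BLKS/J hippocampal arrays and 12.08, 11.90 and 11.83 on those of C57L/J, which did not overlap. Opalin, a myelin membrane protein, read 8.99, 8.69 and 8.98 against 9.92, 9.91 and 9.80 (-0.99 ± 0.14, adjusted p = 0.000235), and Aspa, the aspartoacylase lost in Canavan disease, 9.65, 9.02 and 9.26 against 10.25, 10.19 and 9.89 (-0.80 ± 0.15, 0.00284). In brainstem the same 2 genes differed by -0.051 ± 0.21 and 0.022 ± 0.15. The striatal Aspa call (-0.52 ± 0.13) was lost without each pool in turn except the tested C57BLKS/J pool and the tested C57L/J pool (adjusted p up to 0.169). Without the second untested C3H HeJ brainstem pool, 3 of the 12 were called in brainstem, all higher in C57BLKS/J, beside 1022 of 12484 genes.

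Of 11 microglia and complement genes, 4 were called in hippocampus (C1qa, P2ry12, Ctss and Itgam), 1 in striatum and 1 in brainstem (Ctss in both), all lower in C57BLKS/J, beside 9.59%, 4.31% and 4.09% of all genes. Their mean level was 8.47 to 8.66 in C57BLKS/J and 8.88 to 8.96 in C57L/J hippocampus, and 8.21 to 8.26 and 8.44 to 8.58 in brainstem. In striatum the strains overlapped, at 9.04 to 9.06 and 9.04 to 9.26. The list medians were -0.32, -0.051 and -0.28. Ctss, the lysosomal protease cathepsin S, read 11.32, 11.60 and 11.37 against 12.09, 12.21 and 12.00 in hippocampus, where the groups did not overlap. It differed by -0.67 ± 0.075, -0.50 ± 0.089 and -0.54 ± 0.13 (limma adjusted p = 1.84e-05, 0.00365 and 0.0302), and the brainstem call was lost without each of the 6 arrays in turn (adjusted p up to 0.117). C1qa, the A chain of complement C1q, differed by -0.48 ± 0.11 in hippocampus (adjusted p up to 0.0703 without the second untested C57BLKS/J pool or the first untested C57L/J pool). Csf1r, the receptor that microglia need to survive, was called only over the 3 tissues together, at -0.22 ± 0.045 (adjusted p = 0.00378). Without the second untested C3H HeJ brainstem pool, 4 of the 11 were called in brainstem, again lower in C57BLKS/J, beside 1022 of 12484 genes.

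Of 12 astrocyte genes 3 were called in hippocampus, 3 in striatum and 2 in brainstem, in both directions, beside 9.59%, 4.31% and 4.09% of all genes. Slc1a3 was higher in C57BLKS/J by its brightest probe set (1.74 ± 0.068 in hippocampus) whereas Aqp4, the astrocyte water channel, was lower in C57BLKS/J hippocampus (-0.65 ± 0.12). Of the 8 oligodendrocyte precursor genes 0 were called by limma in any tissue (1, 1 and 0 at an unadjusted p under 0.05), though Olig2 was called in striatum without the tested C57L/J pool and Olig1 in brainstem without the second untested C3H HeJ pool. Of 5, 4 and 7 endothelial and blood genes tested 0 were called by limma either (0, 0 and 0 at an unadjusted p under 0.05).

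Markers of tissue bordering each dissection also varied, and some moved with strain. In brainstem the 8 cerebellar markers had a mean level of 9.45, 8.87 and 9.12 on the C57BLKS/J arrays and 10.97, 10.86 and 9.83 on those of C57L/J, and choroid plexus markers 8.48, 9.10 and 9.53 and 8.04, 8.46 and 8.16. Neither set overlapped between the strains, though the choroid plexus levels came as close as 8.48 in C57BLKS/J and 8.46 in C57L/J. By limma 0 of the 8 cerebellar and 0 of the 11 choroid plexus genes were called there (2 and 1 at an unadjusted p under 0.05). In hippocampus 3 of the 5 cerebellar genes tested were called, Neurod1 and Calb1 higher and Car8 lower in C57BLKS/J (list median 0.21), and in striatum 1 of 4, Car8 (3 without the tested C57L/J pool). Car8, a carbonic anhydrase-related protein of Purkinje cells, differed by -1.33 ± 0.20 in hippocampus and -1.86 ± 0.18 in striatum, and by -2.07 ± 0.91 in brainstem (adjusted p = 0.359). In striatum the mean level of 12 striatal markers was 13.65, 13.68 and 13.63 in C57BLKS/J and 13.75, 13.33 and 12.75 in C57L/J, while cortical markers read 8.72, 8.97 and 9.80 and 8.25, 9.56 and 10.48. The second untested C57L/J pool was thus lowest for striatal and highest for cortical markers, and the tested pool the reverse. Leaving out the tested pool keeps the C57L/J pools with lower striatal and higher cortical markers. List counts without the second untested C57L/J pool were not made. With the tested pool left out, 9 of the 12 striatal markers were called, all higher in C57BLKS/J, beside 1254 of 12320 genes. With it 1 of 12 was called, beside 4.31% of all genes. The part of these differences in the striatal and brainstem calls was not tested. Of the hippocampal neuron markers 4 of 15 were called in hippocampus, 3 of them higher in C57BLKS/J, and of 6 thalamic markers 0 by limma in any tissue (1, 1 and 1 at an unadjusted p under 0.05), though Rgs16 was called in striatum without the tested C57L/J pool. Without the second untested C3H HeJ brainstem pool 3 of the 8 cerebellar markers were called in brainstem, all lower in C57BLKS/J, beside 1022 of 12484 genes. The marker counts with every pool kept stand beside 9.59%, 4.31% and 4.09% of all genes in hippocampus, striatum and brainstem. Rorb, a cortical marker, was higher in C57BLKS/J in hippocampus (2.46 ± 0.21) and brainstem (1.84 ± 0.17), although its second probe set differed by -0.56 in hippocampus (adjusted p = 0.107).

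**Figure D4:**
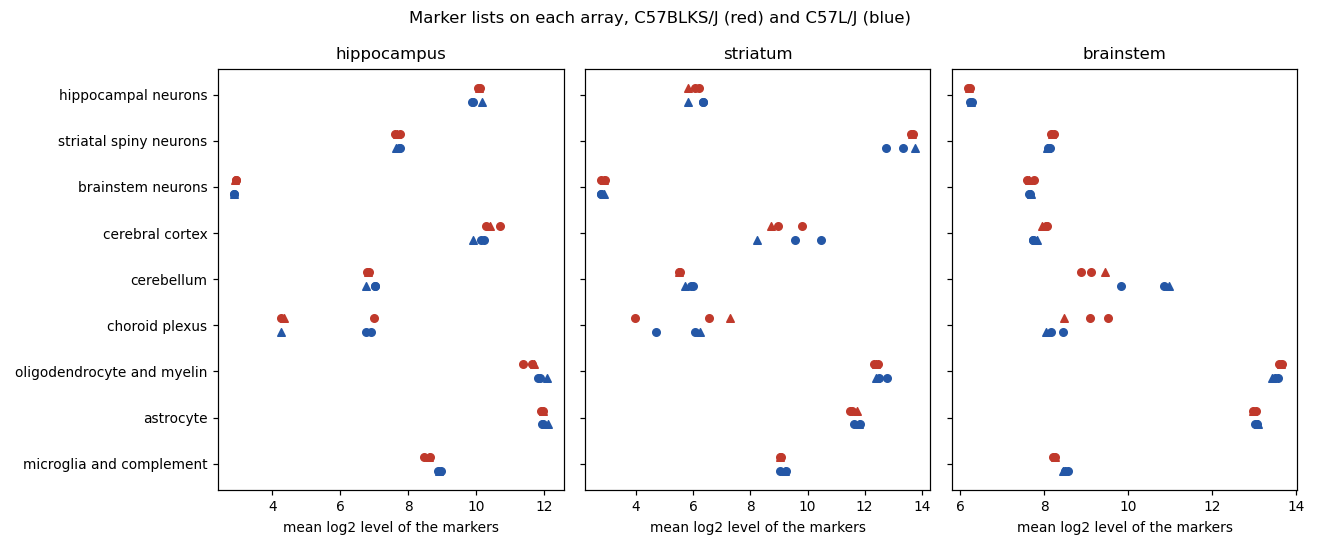
Mean log2 level of 9 marker lists on each array, by tissue; red marks C57BLKS/J, blue C57L/J, triangles the tested pool and circles the untested pools. Neuronal markers of the labelled tissue were highest in it, striatal and cortical markers varied among the 3 C57L/J striatum pools, and cerebellar markers in brainstem were higher on every C57L/J array.

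Of the interferon-related genes tested, hippocampus and striatum each had 1 of 10 called and brainstem 1 of 12 (2 without the second untested C3H HeJ pool), beside 9.59%, 4.31% and 4.09% of all genes. Ifit3, the gene next to Ifit2 on chromosome 19 in RefSeq's order, went the other way from Ifit2 and was higher in C57BLKS/J. In brainstem it read 8.40, 8.53 and 8.39 against 3.90, 5.81 and 4.48 in C57L/J (3.71 ± 0.35, adjusted p = 8.51e-06), and in hippocampus it differed by 0.85 ± 0.32 without passing the test (0.12). In striatum its call (1.44 ± 0.37, 0.0438) was lost without each of the 6 arrays in turn (adjusted p up to 0.16). Xaf1, a proapoptotic interferon target, had 2 probe sets of opposite sign: the brighter differed by -0.47 ± 0.14 in hippocampus, with its call lost without each pool in turn except the second untested C57BLKS/J pool and the second untested C57L/J pool (adjusted p up to 0.199), and the other by 3.43, 2.42 and 3.45 in the 3 tissues.

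Among 16 circadian clock genes 2 were called in hippocampus, both lower in C57BLKS/J (Clock and Bhlhe41), 1 in striatum and 0 of 15 by limma in brainstem (4 at an unadjusted p under 0.05, and 3 called without the second untested C3H HeJ pool). Bhlhe41, a repressor of the clock, lay under the 40th percentile in hippocampus and striatum in C57BLKS/J and C3H HeJ, and above it in the other 4 strains. It read 1.50, 1.52 and 1.52 in C57BLKS/J hippocampus and 5.37, 4.94 and 5.40 in C57L/J, and 1.59, 1.85 and 1.78 against 7.55, 7.30 and 6.19 in striatum. The difference was -3.73 ± 0.19 and -5.27 ± 0.33 (limma adjusted p = 2.64e-09 and 1.14e-07), and in brainstem it lay under the filter. Of 16 chaperones 0 were called by limma in hippocampus and striatum (2 and 1 at an unadjusted p under 0.05) and 1 in brainstem (Calr, the endoplasmic reticulum lectin calreticulin, 0.26 ± 0.057, lost without each pool in turn except the first untested C57BLKS/J pool and the first untested C57L/J pool with adjusted p up to 0.1). Hsp90aa1 was called in striatum without the tested C57L/J pool. Hspa5, the main chaperone of the endoplasmic reticulum, was higher in C57BLKS/J over the tissues together by 0.20 ± 0.035 (adjusted p = 0.000974). Of the 16 glucocorticoid-responsive genes 0 were called by limma in a single tissue (4, 4 and 1 at an unadjusted p under 0.05) and 3 over the tissues together. Without the tested C57L/J pool Fkbp5 was called in striatum, and without the second untested C3H HeJ pool Klf9 in brainstem. Of the 14 activity-regulated genes 0 were called by limma in hippocampus and over the tissues together (0 and 1 unadjusted). The striatum had 0 of 13 called by limma (2 unadjusted, and 2 called without the tested C57L/J pool) and the brainstem 0 of 12 (0 unadjusted). Of 3 Y-linked genes 0 were called by limma in any comparison (0, 0, 0 and 0 unadjusted). A list of loci known to vary among inbred mice, drawn up with earlier results of these data in view, had 6 of 11 called in each tissue, among them Stk25, Cap1, Erdr1, Glo1 and Alad. The list counts from clock genes to these loci stand beside 9.59% (hippocampus), 4.31% (striatum) and 4.09% (brainstem) of all genes. Over the tissues together the share was 9.85%. Without the tested C57L/J striatum pool 1254 of 12320 genes were called in striatum. Without the second untested C3H HeJ pool 1022 of 12484 were called in brainstem.

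Called genes were unevenly spread over the chromosomes. Over the 3 tissues together 108 of 607 genes tested on chromosome 17 were called, 17.8%, against 9.89% of all placed genes. Chromosome 13 followed with 67 of 512 (13.1%), and the lowest shares were on chromosome 2, 35 of 1021 (3.43%), chromosome 10, 38 of 648 (5.86%), and the X chromosome, 28 of 441 (6.35%). These shares are a description, since neighbouring genes are not independent.

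**Figure D5:**
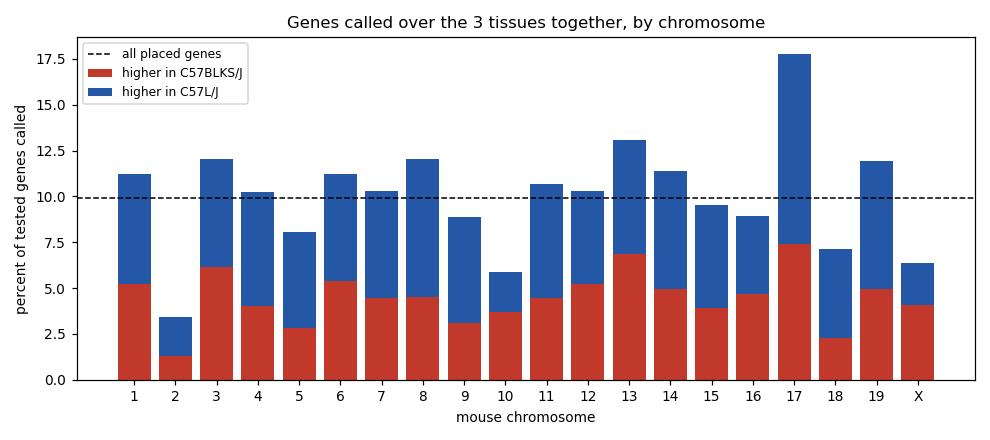
Percent of the genes tested on each mouse chromosome that were called over the 3 tissues together, split into those higher in C57BLKS/J (red) and higher in C57L/J (blue); the dashed line is the share over all placed genes, 9.89%. Chromosome 17 reached 17.8% and chromosome 2 only 3.43%.

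Joining called genes with at most 2 uncalled tested genes between them gave runs of up to 14 called genes, and the 4 longest are described by their 3 widest differences. Each run starts and ends on a called gene, so the rule itself makes its share of called genes high. That share was not tested. Of all runs, 493 held 1 called gene and 140 held 2. The longest lay on chromosome 13, from Klf6 to Ggps1, with 14 called of 25 tested genes, 11 of them higher in C57BLKS/J. Gtpbp4, a nucleolar GTPase of ribosome assembly, read 10.84, 10.91 and 10.92 in C57BLKS/J hippocampus and 8.06, 7.49 and 8.15 in C57L/J (2.99 ± 0.21, 3.58 ± 0.25 and 2.45 ± 0.15 in the 3 tissues), though its second probe set differed by 0.040. Ggps1, which makes geranylgeranyl diphosphate, differed by 1.87 ± 0.092, 1.21 ± 0.13 and 1.03 ± 0.050. Adarb2, a relative of the RNA-editing deaminases, was higher by its brightest probe set (0.90 ± 0.073 in hippocampus) and lower by its second (-1.23). In these 3 genes C57BL6/J and C57BL10/J were nearer to C57BLKS/J in hippocampus.

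A pair of runs lay on chromosome 17. From Crim1 to Morn2, 11 of 18 genes were called, 8 higher in C57BLKS/J. Morn2 differed by 2.30 ± 0.094, 2.68 ± 0.12 and 2.11 ± 0.12, with C57L/J below both C57BL strains. Gpatch11 was lower in C57BLKS/J, at -1.33 ± 0.21 in hippocampus, with its striatal call (-0.84 ± 0.22) lost without each pool in turn except the second untested C57L/J pool (adjusted p up to 0.16) and its brainstem call (-0.79 ± 0.19) without each pool in turn except the second untested C57L/J pool (up to 0.157). Galm, galactose mutarotase, was lower in C57BLKS/J hippocampus (-1.23 ± 0.13) and brainstem (-0.82 ± 0.12), and its striatal difference was -0.10 ± 0.096. From Zfp52 to Zfp40, 10 of 16 genes were called, 4 higher and 6 lower in C57BLKS/J, and all 10 are zinc finger genes, a family whose probe sets can share sequence. Zfp40 differed by -1.78 ± 0.14 in hippocampus and -1.93 ± 0.15 in striatum, Zfp758 by -1.56 ± 0.14, -1.53 ± 0.15 and -1.42 ± 0.14, and Zfp52 by -0.90 ± 0.21, -1.45 ± 0.18 and -0.95 ± 0.17 (the first with adjusted p = 0.0604 without the tested C57BLKS/J pool). For these 3 genes C57BL6/J and C57BL10/J read like C57L/J in hippocampus, for example 9.01 and 9.10 for Zfp40.

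On chromosome 8, from Ano8 to Tpm4, 10 of 17 genes were called, 5 in each direction. Plvap, a protein of the diaphragms of fenestrated endothelium, read 9.33, 9.05 and 9.07 in C57BLKS/J hippocampus and 7.13, 7.48 and 7.66 in C57L/J, and differed by 1.73 ± 0.23, 2.27 ± 0.24 and 1.35 ± 0.10, with C57BL6/J and C57BL10/J near C57L/J (7.71 and 7.60). Slc27a1, a fatty acid transporter, was higher in C57BLKS/J by 0.54 ± 0.12 in hippocampus, differed by 1.19 ± 0.34 in striatum without passing the test (adjusted p = 0.0732), and lost its brainstem call (0.67 ± 0.16) without each of the 6 arrays in turn (adjusted p up to 0.134). Its second probe set differed by -0.40 in hippocampus. Zfp709 in C57BLKS/J fell by 0.69 ± 0.069 over the tissues together and was called in brainstem alone of the single tissues.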

How the data were processed

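The sample labels describe 54 arrays, each of RNA pooled from 3 mice, with 45101 probe sets. The authors deposited log2 expression per probe set, already normalized. Per the submitters' processing notes R 2.6.1, affy 1.16.0, RMA, GCRMA 2.10.0 and limma 2.12.0 were used. Which of RMA and GCRMA gave these values, whether the tissues were normalized together, and the hybridization batches are not stated there, so strains were compared within tissues.

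Tests were run with limma 3.58.1 in R 4.3.3, two-sided with an intensity trend, and adjusted by Benjamini-Hochberg over all genes tested. Of the probe sets 34945 had 1 gene symbol, 932 several and 9160 none here, and 64 were controls. The brightest probe set stood for each of 18193 genes. Genes entered a tissue's test if at least 3 of its 18 arrays exceeded their own 40th percentile. The fit of a tissue held all 6 strains, which share 1 estimate of spread, with testing for prepulse inhibition as a term. The combined and interaction fits held the 18 arrays of both strains, with tissue and testing as terms. Probe sets were also fitted singly and adjusted over all of them. The fits were tested on simulated data. The number of arrays limits the precision.

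Named genes are the 10 highest and 10 lowest among those called alike in 3 tissues, the 5 highest and 5 lowest with every probe set called alike, the 8 smallest interaction p-values, up to 3 called members of each of 28 lists, Pdxdc1, 3 histocompatibility and 3 coat colour genes, and the 3 widest differences of each of the 4 longest chromosomal runs. Other genes were named after their values were seen. The comparison and the lists were chosen with earlier results of these data known. RefSeq tables (GRCm38.p6) gave gene order and the miRNA sequence. By symbol, 34741 probe sets matched them. Alternatives were other probe sets, filters, scalings, arrays and model terms, a replicate block, and leaving out each array.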

Additional observations from a re-analysis of the deposited data

Results flagged for a closer look

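Each of these genes drew attention because limma's strain by tissue interaction found its difference between C57BLKS/J and C57L/J to differ between tissues. The adjusted p of that interaction, over 13199 genes, is given for each. In brainstem the difference was -5.96 for H2-Bl (3.07e-08), -3.51 for Glra1 (4.07e-07) and -2.65 for Fggy (7.62e-08), none of them called in another tissue. B230311B06Rik (8.81e-09) and Gm33738 (4.07e-07) passed the filter in brainstem alone, at -2.98 and 1.09, so their interactions set that difference beside levels under the filter. For Fggy and Gm33738 the low strain lay under the filter in brainstem. Ifit3 (0.0134) differed by 3.71 in brainstem and 0.85 in hippocampus.

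Other genes had a smaller difference in brainstem than in hippocampus. These were Mir1931 (3.07e-08, 1.19 against 5.63), Gm13306 (7.26e-05, 2.03 against 5.88), Cfap54 (0.00466, -1.12 against -3.90), Slc18a2 (0.000692, 1.25 against 3.26) and Wbp11 (4.62e-05, -0.12 against 1.09). Lefty1 (6.22e-05) passed the filter in hippocampus alone, at 1.21, so its interaction also sets that difference beside levels under the filter. For Mir1931, C57L/J lay under the filter in every tissue, so its interaction follows the C57BLKS/J level in each. For Gm13306, C57L/J lay under the filter in hippocampus.

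Striatum had the widest difference for Cap1 (0.0361, 6.38), Serpinb1a (0.0150, 5.67) and Bhlhe41 (0.000688, -5.27). It had the narrowest for Gdpd3 (0.00675, -4.82) and Galm (0.00237, -0.10). For Gdpd3 and Bhlhe41, C57BLKS/J lay under the filter in every tissue. Their interactions therefore follow the C57L/J level in each tissue and cannot size a change in the strain difference. For Serpinb1a, C57L/J lay under the filter in hippocampus and striatum. Galc (0.000167) differed by 5.33 in hippocampus and 6.41 in striatum, where C57L/J lay under the filter. For H2-D1 (0.0325) the brightest probe set gave -0.86 in striatum and 0.0031 in brainstem. The remaining 3 were called in opposite directions in a pair of tissues: Mylk (0.000905, 0.48 in hippocampus and -0.69 in striatum), Cbfa2t3 (0.0207, 0.59 and -0.36) and Spata5l1 (0.0135, 0.67 in striatum and -0.56 in brainstem).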

How the results depend on the processing

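Counts of called genes stayed within 1.5 times of the reported ones, in each fit where they were run, under another filter or none, quantile normalization, median centring, no testing term, no intensity trend and the mean of a gene's probe sets. Median centring left 304 genes higher in C57BLKS/J and 597 lower in hippocampus, and 243 and 202 in brainstem, where the larger side turned. Counts moved when every probe set was tested (2817 in hippocampus, 975 in striatum, 957 in brainstem), with only the 6 arrays compared (505 in hippocampus, 228 in striatum), and over the tissues together without hippocampus (683) or brainstem (805). The interaction count moved to 85 among genes passing in all 3 tissues and to 217 with all 54 arrays. Leaving out 1 array gave 757 to 1157 genes in hippocampus, 330 to 1254 in striatum, 364 to 420 in brainstem, 1062 to 1377 together and 93 to 663 for the interaction. Brainstem had 1022 without the second untested C3H HeJ pool. For the genes called alike in 3 tissues only arrays were left out, a choice made after seeing the data, which gave 175 to 216, 260 without that C3H HeJ pool and 266 without it and the tested C57L/J striatum pool.

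Same-numbered pools deviated alike in only part of the comparisons. Their deviations correlated above 0.1 in 4 of 9 comparisons between the strains within a tissue (-0.15 to 0.45) and in 3 of 18 between tissues (-0.40 to 0.16). Between the strains the correlation was 0.43 for tested and 0.45 for second untested pools in striatum, and 0.19 and 0.28 in hippocampus. For the first untested pools it was -0.13 in striatum and -0.15 in hippocampus, and in brainstem all lay at -0.13 to 0.035. The main fits held no pool number beyond the testing term. In the tissue fits the replicate block was a term for the pool number, shared by the strains. In the other fits it was a correlation between same-numbered pools of a strain, estimated at -0.045 together and -0.0074 for the interaction. Since the labels do not say which mice each pool held, the rise together from 1300 to 1576 genes cannot show the effect of shared mice. With the replicate block 1127, 504, 472 and 1576 genes were called in hippocampus, striatum, brainstem and together, and 129 for the interaction. Of the named differences 318 kept their side of the threshold, called or not, 4 lost their call (Etnppl in hippocampus, Aspa, Ifit3 and Gpatch11 in striatum, adjusted p = 0.0503 to 0.0527) and 4 gained it (0.0315 to 0.0403).

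Among differences called under either choice, the sign changed only when the gene's other probe sets, or their mean, replaced the brightest. The mean gave 1.10 for H2-D1, -0.59 for Grin2b, 1.48 for Xaf1, -0.060 for Adarb2 and -0.041 for Mylk in hippocampus. It gave 0.68 for H2-D1, -0.61 for Grin2b and 0.99 for Xaf1 in striatum, 1.37 for Xaf1 in brainstem and 1.25 for H2-D1, -0.37 for Grin2b, 1.28 for Xaf1 and -0.026 for Adarb2 together. Single probe sets gave -1.65 for Galc, -0.28 for Rps9, -0.26 for Wbp11, 5.52, 3.77, 4.26 and 0.033 for H2-D1, 0.013 for Etnppl, -0.044 for Slc1a3, -0.56 for Rorb, -1.06 and -1.79 for Grin2b, 3.43 for Xaf1, -1.23 for Adarb2, -0.40 for Slc27a1, -0.15 for Cbfa2t3 and -0.62 for Mylk in hippocampus. They gave -0.51 for Galc, -0.14 for Rps9, 4.78, 2.34 and 2.77 for H2-D1, -0.028 for Slc1a3, -0.60 and -2.08 for Grin2b, 2.42 for Xaf1, -0.023 for Gtpbp4, -1.74 for Adarb2 and 0.052 for Cbfa2t3 in striatum. In brainstem they gave -0.58 and -0.0036 for Galc, -0.20 for Rps9, 0.045 for Odc1, -0.029 for Slc1a3, -0.19 for Rorb, 3.45 for Xaf1, -1.56 for H2-K1, -0.92 for Adarb2 and -0.25 for Slc27a1. The cause was not tested.

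With an array left out, 2867 recomputed differences of named genes kept sign and side of the threshold, 112 lost the call, 27 gained it and 40 uncalled ones changed sign. Other settings, the block included, gave 2613, 71, 36 and 12. The spread between single mice was not measured, since each array held a pool. How far differences from a level under the 40th percentile, as for Gdpd3, depend on the authors' background step was not tested.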
